A study of Glycine max with 15 samples.

Results

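Soybean seedlings that received the brassinosteroid synthesis inhibitor propiconazole and then a high dose of brassinolide for 8 h were compared with mock-treated control seedlings. The genes described are all gene IDs with at least 1 FPKM in either group. FPKM is the number of sequenced fragments scaled for transcript length and library size. Of 54175 gene IDs, 31528 (58.2%) met this rule. All plants were Glycine max of the cultivar williams 82, were 10 days old and stood at the first vegetative stage, and whole seedlings were collected. Labels call the treated group Pcz-BL-8h: 5 mM propiconazole (Pcz), with brassinolide (BL) at 1 mM for 8 h. The control group was mock treated. Each group had 3 libraries, of 15 in the series. Millimolar doses are high for these compounds, and the unit is given as the labels give it.

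The study had no group that received the inhibitor followed by a mock addition for 8 h. The inhibitor, the hormone, the act of adding it and the time therefore cannot be told apart in this comparison. The table was assigned to Pcz-BL-8h by the name of its spreadsheet tab, which the sample labels cite. Its own column header names another group, Pcz-BL. Headers and tabs conflict for 2 further tables used below, assigned by tab as well: the one called low BL here (tab Pcz-BL) is headed Pcz-BL-1h, and the one called Pcz-BL-1h is headed Pcz-BL-8h. By header, the table described here as Pcz-BL-8h would hold Pcz with low BL, and the table called low BL would hold high BL for 1 h. The authors pooled the 3 libraries of a group into 1 FPKM, so no spread between libraries can be shown. Depth is unknown for the same reason. The authors' deposited test is the measure of significance, and its p-values measure the spread between the 3 libraries, which may be technical, as separate plants or pots are not stated in the labels.

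Brassinosteroids are plant steroid hormones that promote cell elongation, vascular differentiation and leaf growth. The hormone binds a receptor kinase at the cell surface, and a kinase cascade inside the cell then activates transcription factors that raise some genes and lower others. Propiconazole is a triazole that blocks cytochrome P450 enzymes of brassinosteroid synthesis. The files do not pair the gene IDs with names, and the gene table of the assembly Glycine_max_v4.0 (59048 genes) held 0 of the 54175 IDs. No gene function is therefore given, and genes are described by level, size of change, locus and position.

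Of the 31528 genes, 25413 (80.6%) had at least 1 FPKM in both groups. Another 2719 reached 1 FPKM only in Pcz-BL-8h seedlings, with a median of 1.84 FPKM there and 0.502 FPKM in control seedlings. The other 3396 reached it only in control seedlings, with a median of 0.518 FPKM in Pcz-BL-8h seedlings and 1.94 FPKM in control seedlings. Genes in these last 2 classes passed the rule only through the group in which they were high, so they had to differ. Most lay close to the limit. Only 149 of the 2719 reached 10 FPKM in Pcz-BL-8h seedlings, and 107 of the 3396 did so in control seedlings. At the limit itself, the 509 genes whose higher value lay between 1 and 1.1 FPKM had log2 folds from -1.07 to 1.07. The 551 genes just outside it, between 0.9 and 1 FPKM, had log2 folds from -0.97 to 0.996.

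Change was measured as the log2 ratio of FPKM + 1 in Pcz-BL-8h over FPKM + 1 in control, which understates the change of genes with low values. The median over the 31528 genes was -0.089, with quartiles of -0.76 and 0.62. The central 90% of genes lay between -1.74 and 1.79. In the authors' deposited table, 18432 of these genes (58.5%) passed their test at a q of 0.05 or less, against 56.5% of all 34619 genes tested, so the share is close to that background. Of the calls, 8388 were higher in Pcz-BL-8h (26.6% of the genes) and 10044 lower (31.9%), against 25.8% higher and 30.7% lower among all tested genes. Called genes moved by similar amounts in both directions, with a median log2 fold of 1.04 for higher and -1.02 for lower genes. The smallest p-value the deposited test gives, 5e-05, was held by 9400 of the calls (51.0%). Dividing the log2 ratio by the deposited test statistic gave a nominal standard error per gene, with a median of 0.489 on the log2 scale. Its quartiles were 0.438 and 0.607 (31265 genes). The deposited p-values do not follow from this value. With p taken from a normal distribution of the statistic, only 4636 genes were called higher and 5732 lower.

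The balance of higher and lower genes varied with the size of change. At 2-fold or more, 4731 genes were higher and 5597 lower. Higher genes led at 2-fold instead with the median of the genes set to 0 (5379 higher and 4856 lower), with a pseudocount of 5 (2297 and 1953), with at least 10 FPKM in either group (2686 and 2336) and in the table taken by its header (4311 and 3357). With the control column of the Pcz table the split was 3645 higher and 7628 lower. The tables were normalised separately, and control FPKM in the Pcz-BL-8h table were at the median 0.836 times those in the Pcz table. Using the control column of another table therefore mixes scales, which by itself shifts folds towards lower. All genes past 2-fold on FPKM + 1 are members by construction. Over all 54175 IDs the counts of 4731 and 5597 are therefore 8.73% and 10.3%, and nothing is read from that. At 4-fold, 1208 genes were higher (2.23% of all IDs) and 1036 lower (1.91%). This order at 4-fold turned round when the control column of any other table, or the mean of all 4, was used, which mixes scales in the same way. It also turned round with total FPKM set equal in both groups (1109 higher and 1120 lower) and with a pseudocount of 0.1, where 2444 genes were higher and 2764 lower. At 8-fold, 393 genes were higher (0.725% of all IDs) and 214 lower (0.395%), and higher genes outnumbered lower ones under every alternative tried. That lead was narrow with the control column of the Pcz-BL-1h table (323 higher and 306 lower) or of the Pcz table (331 and 294). At 16-fold the counts were 121 higher (0.223%) and 68 lower (0.126%), and at 32-fold 42 higher (0.0775%) and 23 lower (0.0425%). Genes with at least 1 FPKM in both groups showed the same order, with 3365 higher and 3787 lower at 2-fold and 245 higher and 114 lower at 8-fold.

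**Figure D1:**
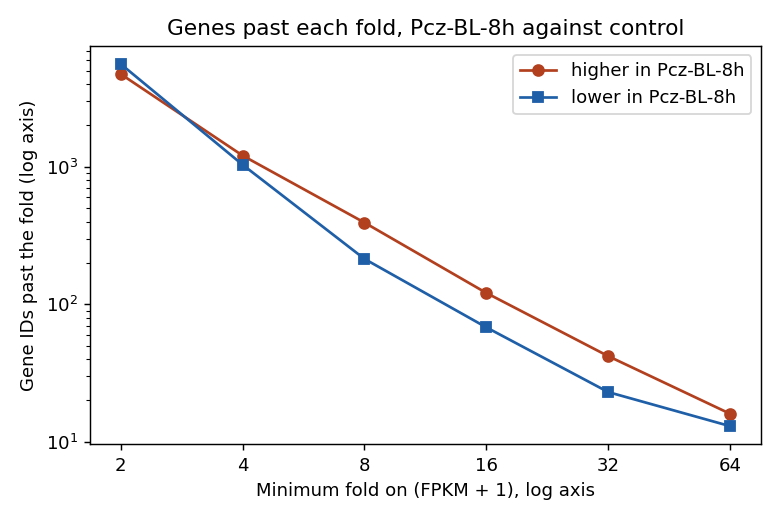
Number of gene IDs (log axis) that were higher (circles) or lower (squares) in Pcz-BL-8h than in control by at least the fold on the horizontal axis (log axis, on FPKM + 1). The lower genes lead at 2-fold (5597 against 4731) and the higher genes from 4-fold on (1208 against 1036). The order at 2-fold turns round with the median set to 0, a pseudocount of 5, a 10 FPKM minimum or the table taken by header. The order at 4-fold turns round with total FPKM set equal or with a pseudocount of 0.1. It also turns round with the control column of another table, which is on another scale.

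Size of change and call did not always go together. Of the 18432 called genes, 8761 moved by less than 2-fold. Of the 2244 genes past 4-fold, 172 were not called, and 159 of those had been tested, with a median q of 0.211 in the authors' deposited table. The control value was listed at 0 for 98 genes, which had a median of 2.28 and at most 217 FPKM in Pcz-BL-8h seedlings. For 135 genes the Pcz-BL-8h value was listed at 0, with a median of 1.79 FPKM in control seedlings. The highest of these stood at 2045 FPKM in control seedlings, and the authors' deposited table gives it no test.

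The largest called rise was that of Glyma13g10791 (chromosome 13, 12944679 to 12948456, as the table gives the locus). It stood at 352 FPKM in Pcz-BL-8h seedlings and 0.402 FPKM in control seedlings, a log2 fold of 7.98 on FPKM + 1. The authors' deposited table lists q = 0.000181 for it, and its nominal standard error was 0.759 on a log2 ratio of 9.78. This gene was also far above control in the Pcz-BL-1h table (258 against 0.486 FPKM). It was above control in the table of Pcz with low BL (34.5 against 0.484 FPKM). With Pcz alone it stood at 0.911 FPKM, against 0.422 FPKM in control, and the authors' deposited q of 0.0498 there is just inside the limit. By tab name its level was therefore high in both tables with high BL, intermediate with low BL and low with the inhibitor alone. By header it would be highest with low BL (352 FPKM), then with high BL for 8 h (258 FPKM) and for 1 h (34.5 FPKM).

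The second largest called rise was that of Glyma03g04996 (chromosome 3, 5222476 to 5222701), at 217 FPKM in Pcz-BL-8h seedlings and listed at 0 in control (q = 0.000181 in the authors' deposited table). Its locus spans only 225 bp. It had 24.2 FPKM in the Pcz-BL-1h table, 0.623 FPKM with low BL and was listed at 0 with Pcz alone. Control was listed at 0 in each of these tables. The next 10 called genes in order, ranks 3 to 12, had log2 folds from 6.07 to 7.68. They reached 76.3 to 499 FPKM in Pcz-BL-8h seedlings, against 0 to 6.07 FPKM in control seedlings.

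Glyma04g35130 showed the largest called fall (chromosome 4, 41476381 to 41481758, a locus that the table also gives for a second ID). It stood at 0.316 FPKM in Pcz-BL-8h seedlings and 1216 FPKM in control seedlings, a log2 fold of -9.85 on FPKM + 1 (q = 0.000181 in the authors' deposited table). It was lower than control in each of the other tables too. Treated against control, the values were 1.40 against 1482 FPKM in Pcz-BL-1h, 153 against 1474 FPKM with low BL and 296 against 1330 FPKM with Pcz alone. Below control in every table, it was lowest in those with high BL by tab name.

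The second largest called fall was that of Glyma14g14080 (chromosome 14, 13824743 to 13824962), listed at 0 in Pcz-BL-8h seedlings and at 115 FPKM in control seedlings (q = 0.000643 in the authors' deposited table). Its locus spans 219 bp. In the other 3 tables it was not called, for which treated against control values were 70.2 against 139.9 FPKM in Pcz-BL-1h, 213 against 139.9 FPKM with low BL and 111 against 127 FPKM with Pcz alone. Ranks 3 to 12 of the called falls had log2 folds of 5.12 to 6.72 in size. They stood at 0 to 5.66 FPKM in Pcz-BL-8h seedlings, against 42.8 to 442 FPKM in control seedlings.

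**Figure D2:**
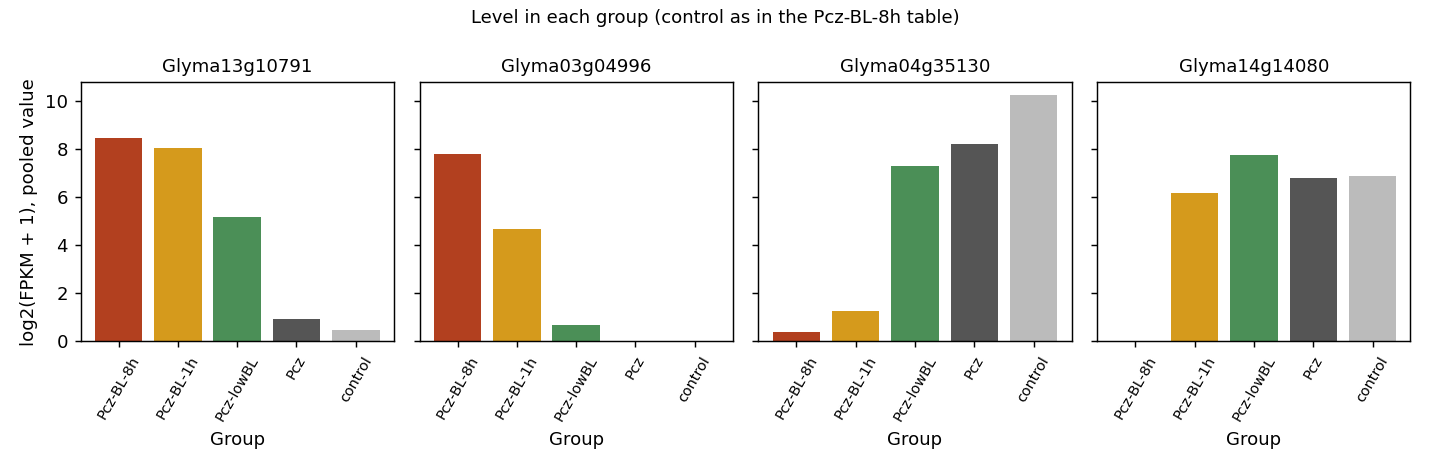
Pooled level, as log2(FPKM + 1), of the 2 genes with the largest called rise and the 2 with the largest called fall in each group. Each treated bar comes from its own separately normalised table, and the control bar from the Pcz-BL-8h table, so the bars are on different scales. For Glyma14g14080, control was 115 FPKM in the Pcz-BL-8h table but 127 FPKM in the Pcz table. Bars have no error because the authors deposited 1 value per group. Glyma13g10791 stands at 352 FPKM in Pcz-BL-8h and 0.402 FPKM in control, and Glyma04g35130 at 0.316 FPKM in Pcz-BL-8h and 1216 FPKM in control.

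The change varied with the span of the locus, the distance between the 2 ends that the table gives for it, introns included. This was examined over the 29565 genes whose locus is given for no other ID. Genes with a span of 1 to 2 kb had a median log2 fold of 0.45 (4180 genes). It was 0.47 at 500 bp to 1 kb and 0.21 at 300 to 500 bp. Beyond 2 kb the median declined with each longer class, to 0.25 at 2 to 3 kb, -0.0066 at 3 to 5 kb, -0.37 at 5 to 10 kb and -0.77 at 10 kb or more (1956 genes). Among genes of 1 to 2 kb, 29.4% were at least 2-fold higher in Pcz-BL-8h and 12.5% at least 2-fold lower. Among genes of 10 kb or more, 2.61% were at least 2-fold higher and 38.5% lower.

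In the authors' deposited table, 44.1% of genes of 1 to 2 kb were called higher and 18.7% lower. At 10 kb or more, 5.83% were called higher and 65.6% lower. The summed FPKM of the class followed the same course, at 202458 in Pcz-BL-8h and 165612 in control for 1 to 2 kb (ratio 1.22). For 10 kb or more it was 9974 in Pcz-BL-8h and 17819 in control (ratio 0.56). Genes at least 4-fold higher had a median span of 2097 bp, genes at least 4-fold lower 4121 bp, and all 29565 genes 3815 bp.

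The decline with span was present at every level of expression. Among genes with a mean under 2 FPKM over both groups, the median log2 fold was 0.36 at 1 to 2 kb and -0.66 at 10 kb or more. Among genes of 2 to 10 FPKM it was 0.43 and -0.82, and among genes of 10 to 50 FPKM 0.52 and -0.84. At 50 FPKM or more it was 0.74 and -0.76, the last over only 19 genes. Between 1 to 2 kb and 10 kb or more, the median log2 fold differed by 1.22 in Pcz-BL-8h. The same difference was 0.014 in the Pcz-BL-1h table, -0.32 with low BL and -0.41 with Pcz alone. The tables share the control libraries, and with 1 pooled value per group the difference between tables could not be tested.

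**Figure D3:**
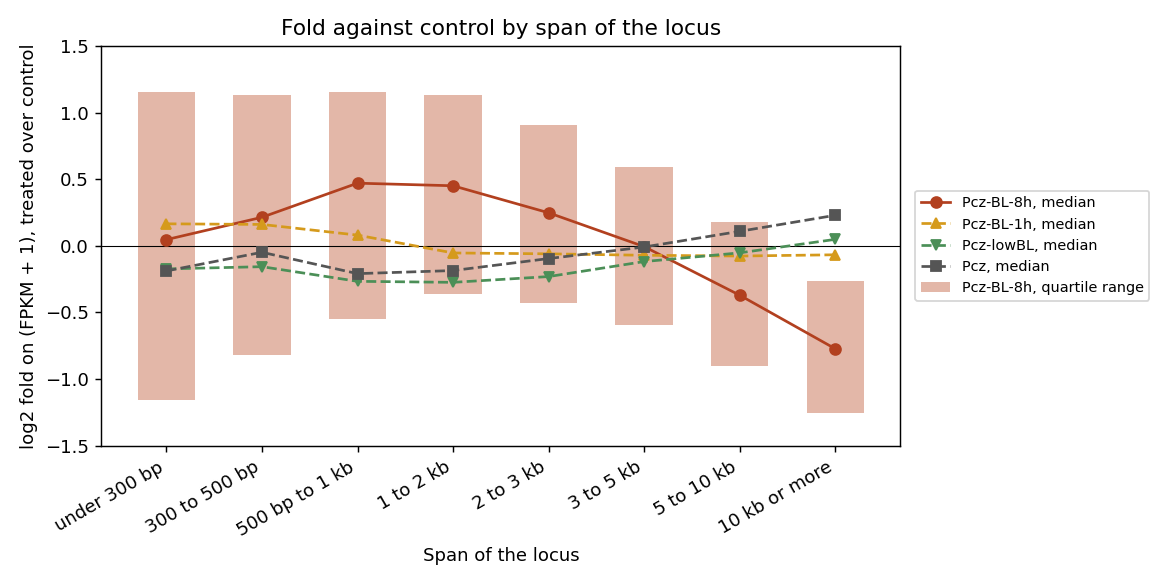
Median log2 fold on FPKM + 1 against control by span of the locus, for Pcz-BL-8h (circles, with the quartile range of its genes as bars) and, each by the same rule in its own table, for Pcz-BL-1h, Pcz-lowBL and Pcz. In Pcz-BL-8h the median lies at 0.45 for loci of 1 to 2 kb and at -0.77 for loci of 10 kb or more.

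Very short loci stood apart in their spread. The 236 genes with a span under 300 bp had a median log2 fold of 0.046 but quartiles of -1.16 and 1.16. Of them, 7.20% (17 genes) moved by at least 16-fold, against 0.612% of all 29565 genes. Only 18.2% of them were called, against 59.3% of the 29565. Glyma03g04996 and Glyma14g14080 both belong to this class.

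The direction of change also varied with level. Among the 8715 genes with a mean of 2 to 5 FPKM, 11.9% were at least 2-fold higher in Pcz-BL-8h and 19.7% at least 2-fold lower. Shares were nearly even at 10 to 20 FPKM, with 16.7% higher and 17.7% lower. At 100 to 500 FPKM (736 genes), 36.1% were higher and 14.3% lower, with a median log2 fold of 0.52. The 168 genes at 500 FPKM or more again leaned lower, with 17.9% higher, 23.2% lower and a median of -0.44. These shares depend on the scale of the control column used. With that of the Pcz table, which was normalised separately, 3645 genes were higher and 7628 lower at 2-fold over all levels. The classes were not recomputed.

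**Figure D4:**
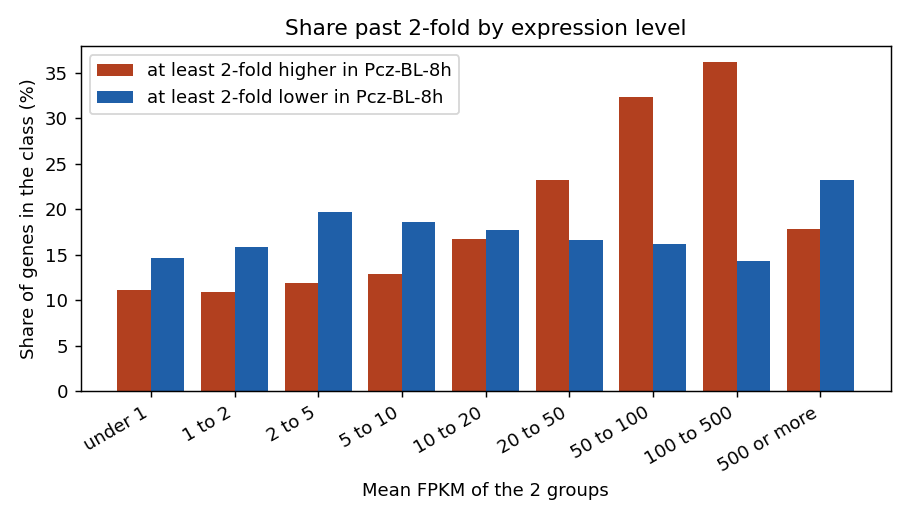
Share of genes at least 2-fold higher (left bar) or at least 2-fold lower (right bar) in Pcz-BL-8h than in control, by the mean FPKM of both groups, with control as in the Pcz-BL-8h table. At 100 to 500 FPKM 36.1% were higher and 14.3% lower, while at 2 to 5 FPKM 11.9% were higher and 19.7% lower.

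Summed FPKM describes how much of the transcript pool the called genes made up, and its direction is fixed by the choice of genes. The 8388 called higher genes held 46.0% of all FPKM in Pcz-BL-8h seedlings and 16.4% in control seedlings. The 10044 called lower genes held 15.7% in Pcz-BL-8h seedlings and 41.8% in control seedlings. The most abundant transcripts were largely the same. Of the 100 most abundant in each group, 68 were in both. The 100 most abundant in Pcz-BL-8h held 27.1% of all FPKM in Pcz-BL-8h seedlings, and the 100 most abundant in control held 30.6% in control seedlings. Among the 100 most abundant in control, 5 were called higher and 49 lower in Pcz-BL-8h. Among the 100 most abundant in Pcz-BL-8h, 35 were called higher and 21 lower. Each of these lists was chosen by the level in 1 of the groups compared, which favours these directions.

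The most abundant gene was the same in both groups, at 15939 FPKM in Pcz-BL-8h seedlings and 10896 FPKM in control seedlings, and was not called (q = 0.189 in the authors' deposited table). The second was likewise shared, at 9669 FPKM in Pcz-BL-8h seedlings and 8487 FPKM in control seedlings, and was not called (q = 0.736 in the authors' deposited table). The fourth most abundant in Pcz-BL-8h stood at 5736 FPKM there and 181 FPKM in control, and was called. Conversely, the seventh most abundant in control stood at 142 FPKM in Pcz-BL-8h seedlings and 4437 FPKM in control seedlings, and was called. No ID is given for these 4 genes, since the rule for naming does not reach them.

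Genes past 4-fold were spread over all 20 chromosomes. The share at least 4-fold higher ranged from 2.96% on chromosome 10 to 4.87% on chromosome 1, and the share at least 4-fold lower from 2.73% on chromosome 2 to 3.82% on chromosome 15. Over all chromosomal genes with at least 1 FPKM in either group, the shares were 3.83% higher and 3.28% lower. Large changes in 1 direction tended to lie side by side. Of 1204 chromosomal genes at least 4-fold higher, 219 (18.2%) had a next gene of the set, on either side and without overlap, that was also at least 4-fold higher. The same was true of 6.93% of the genes that were not themselves 4-fold higher. For the 1030 genes at least 4-fold lower, 125 (12.1%) had such a neighbour, against 5.95% of the remaining genes. The longest run held 5 genes in the higher direction and 3 in the lower. Near-identical neighbouring copies can share reads, and how the authors counted such reads is not given in the sources used here.

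The genes chosen by a 4-fold change in Pcz-BL-8h were followed into the remaining tables, which share the control libraries and were normalised separately. The 1208 higher genes had a median of 22.8 FPKM in Pcz-BL-8h seedlings and 2.05 FPKM in control seedlings. Their median log2 fold was 2.59 in Pcz-BL-8h, 1.37 in Pcz-BL-1h, -0.090 with low BL and -0.18 with Pcz alone. The quartiles were 0.73 and 2.16 in Pcz-BL-1h, -0.83 and 0.80 with low BL, and -1.09 and 0.44 with Pcz alone. The typical gene of this set thus stood above control in the table on the tab Pcz-BL-1h and near control in those on the tabs Pcz-BL and Pcz, the first of which is headed Pcz-BL-1h.

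The 1036 lower genes had a median of 1.65 FPKM in Pcz-BL-8h seedlings and 16.6 FPKM in control seedlings. Their median log2 fold was -2.43 in Pcz-BL-8h, -1.37 in Pcz-BL-1h, -0.18 with low BL and -0.49 with Pcz alone. With Pcz alone the quartiles were -1.51 and 0.27, so part of the set was also well below control there. Over all 31528 genes the medians were -0.089, -0.12, -0.14 and -0.047 in the same order of tables. Both sets of genes were chosen in the first of these tables, which favours the larger values there. The choice also used the control libraries, which all these tables share. It therefore favours the same side of control in the other tables too, and agreement in side is not independent support.

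**Figure D5:**
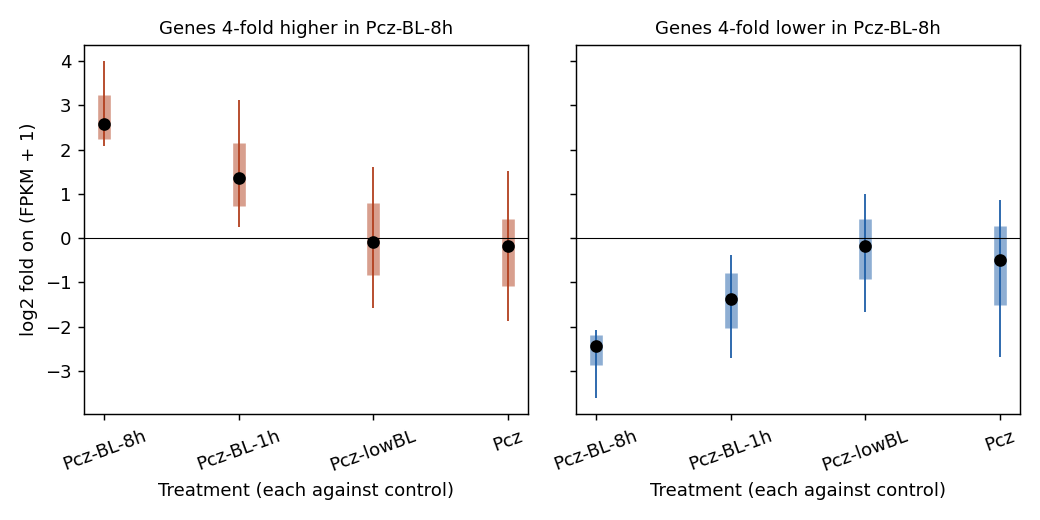
Log2 fold on FPKM + 1 against control in each of the 4 tables for the 1208 genes at least 4-fold higher (left) and the 1036 at least 4-fold lower (right) in Pcz-BL-8h; points are medians, thick bars the quartiles and thin lines the 10th to 90th percentiles. Medians in Pcz-BL-1h are 1.37 and -1.37, on the same side of control as in Pcz-BL-8h, which the choice of genes through the shared control libraries favours.

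The authors also deposited a short list of 3981 gene IDs for Pcz-BL-8h, 1859 higher and 2122 lower. The list is recovered exactly (3981 of 3981 IDs) by 2 conditions on the called genes of the full table. These are a ratio of at least 4-fold between FPKM values above 0 and the smallest p-value of 5e-05. Of its IDs, 3924 had at least 1 FPKM in either group. The 4-fold ratio of the list carries no pseudocount, so it holds more genes than the 2244 past 4-fold on FPKM + 1.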

How the data were processed

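Stranded TruSeq mRNA libraries were made, per the labels' protocols. Cuffdiff made the full table, per the file headers; no version, aligner, build or annotation is named there (not given in the sources used here). FPKM were deposited by the authors as 1 pooled value per group and table. The score is the authors' deposited Cuffdiff test statistic, and p-values and q-values are the authors' deposited ones. The short lists hold the authors' deposited log2 ratios, which matched those recomputed from FPKM to within 2.54e-05.

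Folds were computed as log2((FPKM + 1)/(FPKM + 1)) for genes with 1 FPKM or more in either group, and calls required an authors' q of 0.05 or less and test status OK. The counting step was checked on a copy of the control values of the Pcz-BL-8h table with planted 8-fold changes and no added noise. This checks the arithmetic only. Among called genes, the 2 highest and 2 lowest IDs by this fold are named, because no table pairs IDs with names. For the same reason the planned gene lists could not be applied. Span classes, neighbours and the 4-fold and 8-fold alternatives were added after the data were seen. The members and lists were chosen with earlier results of these data known. Control FPKM, as deposited, were at the median lower in the Pcz-BL-8h table than in every other table (15986 genes). The median factor was 0.829 against the Pcz-lowBL table, 0.826 against the Pcz-BL-1h table and 0.836 against the Pcz table. The log2 factor had a standard deviation of 0.0065 against the Pcz-lowBL and Pcz-BL-1h tables, but 0.181 against the Pcz table. Control values of the Pcz table thus differed gene by gene and not only in scale, which limits comparisons with that table. Analyses used Python 3.11.15, pandas 2.3.3, NumPy 2.4.6, SciPy 1.17.1 and matplotlib 3.10.9.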

Additional observations from a re-analysis of the deposited data

How the results depend on the processing

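No paired analysis was possible because the deposited FPKM are pooled per group, and for the same reason no replicate could be left out. By column header, the table naming Pcz-BL-8h is the one on the tab Pcz-BL-1h. It gave 3357 lower genes at 2-fold, 512 at 4-fold and 90 at 8-fold, and the span medians were -0.054 at 1 to 2 kb, below control, and -0.068 at 10 kb or more. With a pseudocount of 0.1, 2444 genes were higher and 2764 lower at 4-fold, and 1017 and 914 at 8-fold. With 0.5, 1628 were lower at 4-fold and 357 at 8-fold. With 5, the counts were 2297 and 1953 at 2-fold, 484 and 273 at 4-fold, and 127 and 52 at 8-fold. At 10 FPKM in either group, 2686 were higher and 2336 lower at 2-fold. At 1 FPKM in both groups, 645 were lower at 4-fold, and 245 higher and 114 lower at 8-fold. These filters keep fewer genes, and the cause of the other shifts was not tested. Calls numbered 4473 higher and 5198 lower with a 2-fold minimum, and 4636 and 5732 with p taken from a normal distribution of the deposited statistic. With 5 FPKM in either group 6142 were called lower. The other alternatives kept each count within 1.5 times, but the control columns of the other tables moved the median of all members to between -0.31 and -0.32, against -0.089. Those columns were normalised separately and are on another scale, which by itself shifts folds towards lower. With the control column of the Pcz table, 3645 were higher and 7628 lower at 2-fold, and 1005 and 1474 at 4-fold. The median at 1 to 2 kb stayed above that at 10 kb or more under each alternative that keeps span, though by only 0.014 in the table taken by header. With the median of each span class subtracted, 997 were higher and 922 lower at 4-fold.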

Other observations

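The table for Pcz alone carries an extra column with no heading that holds 59 gene IDs, whose purpose the files do not state. All 59 were among the genes described here and on the authors' short list for Pcz-BL-8h, against 7.35% of all gene IDs on that list. Every ID on the list is called, so all 59 were also called, against 56.5% of tested genes, and nothing is read from that. Whether the 59 are also on the short lists of the other treatments was not examined. The 26 that were higher in Pcz-BL-8h had log2 folds from 1.17 to 4.55 with a median of 2.29. The 33 that were lower had log2 folds from -3.32 to -1.15 with a median of -2.39.

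Total FPKM over all gene IDs was 710735 in Pcz-BL-8h and 677073 in control in the same table, a ratio of 1.05. In the other tables the ratio of treated to control was 0.655 for Pcz-BL-1h, 0.60 for Pcz-lowBL and 0.698 for Pcz.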
